A study of Mus musculus with 12 samples.

Results

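The brakes on cell division were followed through 10 genes in mouse oligodendrocyte progenitor cells (OPCs), the glial precursors that mature into myelinating oligodendrocytes. They are 4 inhibitors of cyclin-dependent kinases (CDKs), the tumour suppressor p53 (Trp53) with its inhibitor Mdm2, and 4 genes that p53 can switch on, and were taken by gene symbol: Cdkn1a, Cdkn1b, Cdkn1c, Cdkn2c, Trp53, Mdm2, Btg2, Gadd45a, Trp53inp1 and Bax. All 10 were found among the 20540 genes of the deposited table and had at least 1 CPM (read counts scaled to a common library size, here the authors' normalised sizes) in enough libraries to be tested. The cells were taken from C57BL/6 mouse brain at postnatal day 6 to 7, grown in a medium for OPC proliferation, and transfected with a biotin-tagged microRNA mimic. A mimic is a short synthetic RNA duplex that stands in for a mature microRNA, and streptavidin, which binds biotin, can pull it down with RNA attached to it. Whole-cell RNA and pulldown RNA were each sequenced under a control mimic and under a miR-27a mimic, in 3 libraries per group and 12 in all, so that every group, the controls too, carries a transfected and tagged mimic. No source used here gives the dose or time of the mimic, the sequence of the control mimic, or whether replicates were separate cultures. The p-values therefore measure only how far these samples spread, and that spread may be technical.

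Cells divide when CDKs, paired with cyclins, inactivate the retinoblastoma family of pocket proteins. The CIP/KIP inhibitors p21 (Cdkn1a), p27 (Cdkn1b) and p57 (Cdkn1c) bind cyclin-CDK complexes, whereas INK4 inhibitors such as p18 (Cdkn2c) bind CDK4 and CDK6 directly. In the oligodendrocyte lineage, p27 and p57 are known for limiting progenitor division before differentiation. The transcription factor p53 is held low by the ubiquitin ligase Mdm2 and, when released by DNA damage or other stress, induces genes for arrest (Cdkn1a, Btg2, Gadd45a), for death (Bax, Trp53inp1) and for its own inhibitor Mdm2.

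A microRNA recognises messenger RNA mainly through its seed, bases 2 to 8, which pair with sites in 3′ untranslated regions (UTRs). The labels do not name the strand of the miR-27a mimic, and the sites below are those of the 3p strand, whose seed the paralog miR-27b-3p shares. Both mature sequences are from RefSeq (GRCm38.p6), at chr8:84208727-84208747 and chr13:63300760-63300780, both on the plus strand. They are shown to let the sites be read against them, with the seed in capitals, and differ by the single substitution C19U, counted from the 5′ end of miR-27a-3p.
miR-27a-3p: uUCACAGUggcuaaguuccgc
miR-27b-3p: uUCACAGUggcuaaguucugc

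The perfect seed match followed by an A, ACTGTGAA, is called an 8mer, and its shorter forms ACTGTGA and CTGTGAA are called 7mers. Searched in each gene's longest annotated 3′ UTR (GENCODE M21, GRCm38), an 8mer or 7mer occurred in 3 of the 10 genes, and in 30.0% of the 15568 genes of the table with such a UTR. Cdkn1b, Cdkn1c, Cdkn2c, Trp53, Mdm2, Gadd45a and Bax had none of these letters in that window. Btg2 alone among the 10 held an 8mer, which 6.69% of all these genes held. The 4 sites are printed 5′ to 3′ on the gene's strand, each with its neighbouring bases in lower case and the match in capitals, because the pulldown results on Btg2, Cdkn1a and Trp53inp1 are read beside them. The Btg2 8mer starts at base 372 of a 3′ UTR of 2199 bases, and its 7mer at base 1712. The Cdkn1a 7mer starts at base 580 of 1334, and that of Trp53inp1 at base 1202 of 4420.
Btg2, 8mer, chr1:134076979-134077008, minus strand: caaggttagcaACTGTGAAtgagaggggtc
Btg2, 7mer, chr1:134075639-134075668, minus strand: ctacaacaaagCTGTGAAttgttccagatg
Cdkn1a, 7mer, chr17:29099962-29099991, plus strand: attgctcagacCTGTGAAgacaggaatggt
Trp53inp1, 7mer, chr4:11171150-11171179, plus strand: agaactgaactCTGTGAActttcagggtct

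Assigned reads numbered 15548418 to 24972188 per library, and the 10 genes had between 52 and 20057 reads in a library. OPC markers were abundant in every group, at 2388 to 4704 CPM summed over 10 genes. Markers of other glia summed higher than the 2388 to 2443 CPM of the OPC genes in whole-cell RNA under the control mimic. Sums over different genes do not give shares of cells. The 10 mature oligodendrocyte genes summed to 12018 to 12575 CPM and the 10 astrocyte genes to 8771 to 8798 CPM in whole-cell RNA under the control mimic. The microglial genes Aif1 and C1qb, the neuronal genes Rbfox3 and Slc17a7, and the endothelial gene Cldn5 stayed under 1 CPM in every library, but other markers of these lists were expressed. Summed over their lists in whole-cell RNA under the control mimic, 10 neuronal genes had 539 to 559.5 CPM, 12 microglial genes 66.0 to 70.5 CPM, and 11 endothelial, mural and fibroblast genes 129 to 141 CPM. In bulk RNA, fewer cells of a type and less RNA per cell cannot be told apart. Replicate 2 of the miR-27a pulldown stood apart from its group in that leaving it out raised the number of genes past the threshold between the mimics in pulldown RNA from 1781 to 2691. Values without it are given for Cdkn1c, Btg2, Trp53inp1 and Gadd45a, and between fractions for Mdm2 and Bax.

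**Figure D1:**
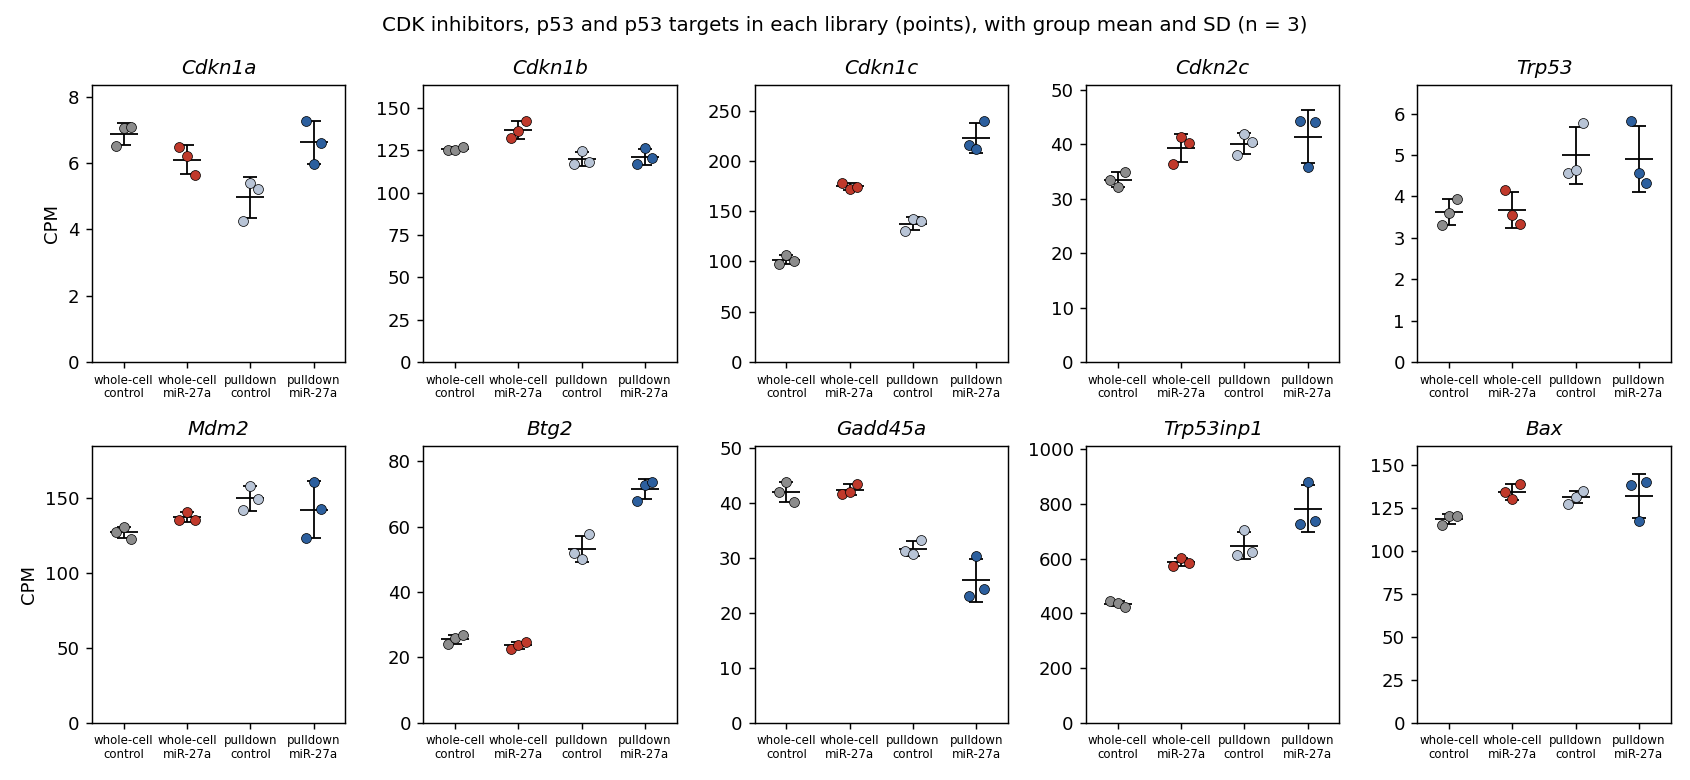
Level of each of the 10 genes in CPM on linear axes that start at 0, one panel per gene, with the 4 groups on the x axis, each point a library and the bars the group mean and SD (n = 3). Cdkn1c and Trp53inp1 are higher under miR-27a in both RNA fractions without overlap, whereas Btg2 is higher under miR-27a only among the pulldown libraries, at 68.0 to 73.7 against 49.99 to 57.6 CPM.

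The comparison of whole-cell RNA asked how the content of these transcripts differed under the miR-27a mimic. Of the 10 genes, 6 rose and none fell at an adjusted p of 0.05 (limma, Benjamini-Hochberg over all 13393 genes tested). Over all genes tested, 24.9% passed this threshold, 13% higher and 11.9% lower. The split of 1736 higher and 1599 lower became 1486 and 1882 with median-of-ratios scaling and 1925 and 1494 with library totals. The 2 large rises were those of Cdkn1c and Trp53inp1, and the other 4, of Cdkn2c, Bax, Cdkn1b and Mdm2, were between 0.11 and 0.22 on the log2 scale. The median log2 change was 0.12 over the 10 genes and 0.01 over all genes tested. Groups did not overlap for 7 of the 10 genes, 6 higher and 1 lower, against 38.8% of all genes tested, 20.3% higher and 18.4% lower. All changes below are of log2(CPM + 1), a scale on which changes of low genes come out too small, and are given with their standard error (SE).

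Among the CDK inhibitors, Cdkn1c (chr7:143458339-143461050, minus strand) moved most. It stood at 97.9, 106.5 and 100.4 CPM under the control mimic and at 178, 172 and 174 CPM under miR-27a. The groups were far apart, with the lowest miR-27a library well above the highest control library. This was a rise of 0.78 ± 0.041 (SE) on the log2 scale, a fold of 1.71, with an adjusted p of 2.4e-12 in limma, and it passed under each of the 15 alternatives run. An annotated antisense gene shares 625 of the 2039 exonic bases of Cdkn1c. Whether reads were counted by strand is not given in the sources, so its reads could not be separated.

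Cdkn2c rose less. Its control libraries had 33.4, 32.2 and 34.97 CPM and its miR-27a libraries 36.4, 41.3 and 40.2 CPM. The groups did not overlap, and the change of 0.22 ± 0.062 had an adjusted p of 0.010. It missed the threshold without miR-27a replicate 2 (0.061), without miR-27a replicate 3 (0.054) and in the fit of all 12 libraries (0.11).

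Cdkn1b, which encodes p27, had 125, 125 and 127 CPM under the control mimic and 132, 137 and 142 CPM under miR-27a. The control libraries were within 2 CPM of each other, and all 3 miR-27a libraries lay above them. The rise of 0.12 ± 0.040 (adjusted p = 0.028) was small, and under 6 of 15 alternatives it missed the threshold, with adjusted p-values of 0.053 to 0.21. These were the omissions of control replicate 2 or 3 or of miR-27a replicate 2 or 3, median-of-ratios scaling, and the fit of all 12 libraries.

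Cdkn1a, the p53-induced inhibitor p21, did not pass the test. It was scarce, with 6.502, 7.04 and 7.07 CPM under the control mimic and 6.47, 6.21 and 5.63 CPM under miR-27a, from 100 to 120 reads in each library. The highest miR-27a library reached just below the lowest control library. The change of -0.15 ± 0.11 did not pass (adjusted p = 0.34), with a 95% interval from -0.37 to 0.07. An annotated gene on the opposite strand shares 273 of the 3553 exonic bases of Cdkn1a.

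The p53 gene itself was the lowest of the 10. Trp53 had 3.32, 3.61 and 3.94 CPM under the control mimic and 4.15, 3.55 and 3.32 CPM under miR-27a, from 52 to 77 reads, and the groups overlapped. Its change was 0.01 ± 0.13 (adjusted p = 0.95), with a 95% interval of -0.25 to 0.28. A processed pseudogene, Trp53-ps, is annotated elsewhere in the genome, so reads shared with it make this level uncertain.

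Mdm2, the ligase that marks p53 for destruction, was far more abundant than Trp53. It had 127, 130.4 and 123 CPM under the control mimic and 135, 141 and 135 CPM under miR-27a, without overlap. The rise of 0.11 ± 0.040 had an adjusted p of 0.041 and was lost under 8 of 15 alternatives. It was lost in particular without control replicate 3 (0.20), without miR-27a replicate 1 (0.086), 2 (0.14) or 3 (0.083), and in the fit of all 12 libraries (0.43).

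The 4 other p53 target genes split. Trp53inp1, a stress protein that acts in p53-dependent death and in autophagy, was the most abundant of the 10, with 444, 439 and 424 CPM under the control mimic and 575, 603 and 584 CPM under miR-27a. Every miR-27a library exceeded every control library by more than 100 CPM. The rise was 0.43 ± 0.033, a fold of 1.35, with an adjusted p of 1.2e-09, and it passed under all 15 alternatives run. Bax, which permeabilises mitochondria in apoptosis, had 115, 119.9 and 120.4 CPM under the control mimic and 134, 129.9 and 139 CPM under miR-27a. Its rise of 0.18 ± 0.040 (adjusted p = 0.0019) also came without overlap, and it missed the threshold only in the fit of all 12 libraries (0.100). A protein-coding gene annotated on the same strand shares 192 of the 1576 exonic bases of Bax.

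Btg2 and Gadd45a, which slow the cycle, did not pass the test. Btg2 had 24.0, 25.9 and 26.7 CPM under the control mimic and 22.5, 23.9 and 24.5 CPM under miR-27a. Its groups overlapped, and the change of -0.11 ± 0.069 had an adjusted p of 0.29 and a 95% interval of -0.25 to 0.04. Gadd45a had 42.1, 43.8 and 40.1 CPM against 41.6, 42.0 and 43.5 CPM. The difference was 0.01 ± 0.055 (adjusted p = 0.89; 95% interval -0.10 to 0.13).

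Proliferation markers rose in the same libraries in which Cdkn1c, Cdkn2c and Cdkn1b rose. All 8 of the proliferation genes passed the test upward in whole-cell RNA, and their summed level went from 1122 to 1185 CPM under the control mimic to 1697 to 1744 CPM under miR-27a. Ccnb1, the cyclin of mitotic entry, had 52.4 ± 1.7 CPM (SD, n = 3) under the control mimic and 164 ± 4.5 CPM under miR-27a. Of the 10 astrocyte markers, 7 fell and none rose, from 8771 to 8798 CPM summed down to 7332 to 7364 CPM, and the mature oligodendrocyte markers went from 12018 to 12575 CPM to 11480 to 11922 CPM. The summed endothelial, mural and fibroblast markers went from 129 to 141 CPM down to 76.1 to 81.9 CPM, with 1 of 7 tested genes higher and 3 lower. The neuronal markers went from 539 to 559.5 CPM up to 599.9 to 624 CPM, with 2 of 8 higher and 1 lower. The OPC markers went from 2388 to 2443 CPM to 2448 to 2456 CPM, with 4 of 10 higher and 1 lower. The part of cell composition and of the share of cycling cells in these changes was not tested.

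**Figure D2:**
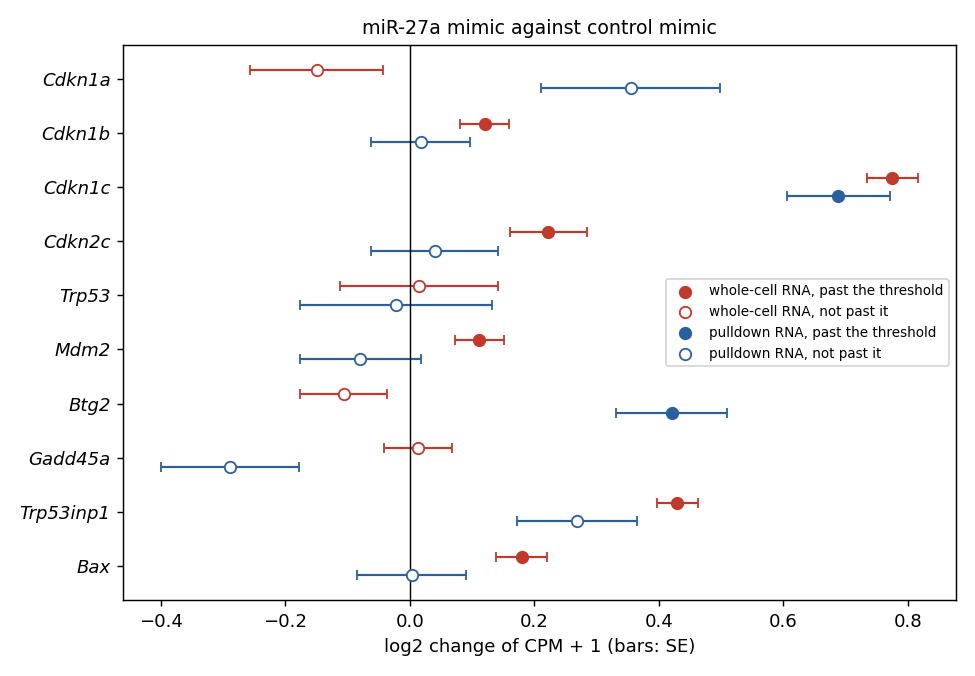
Log2 change of CPM + 1 under miR-27a against control mimic on the x axis for the 10 genes, in whole-cell RNA (red) and pulldown RNA (blue), with bars for the SE and filled points for an adjusted p under 0.05 in limma (3 against 3 libraries each). Cdkn1c is past the threshold in both, at 0.78 and 0.69, whereas Btg2 is past it in pulldown RNA alone, at 0.42.

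In pulldown RNA the same contrast gave 2 rises among the 10 genes, of Cdkn1c and Btg2, and no fall. Over the 13586 genes tested, 13.1% passed the threshold, 6.05% higher and 7.06% lower, and the split of 822 higher and 959 lower became 925 and 823 with library totals. Groups did not overlap for 5 of the 10 genes, 4 higher and 1 lower, against 30.9% of all genes, 14.4% higher and 16.6% lower. Cdkn1c was the 1 gene past the threshold in both fractions. The median log2 change was 0.03 over the 10 genes and 0.00 over all genes. Here the replicate numbers appeared to pair the samples, though the labels do not say so and only 3 libraries per group bear on it. With replicate number as a block, the number of genes past the threshold went from 1781 to 2743.

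Cdkn1c had 130.5, 142 and 139.7 CPM in the control pulldown and 216, 212 and 239.6 CPM in the miR-27a pulldown. The groups were again well apart. The rise was 0.69 ± 0.083, a fold of 1.61, with an adjusted p of 5.3e-05 in limma, and 0.72 ± 0.075 without replicate 2 of the miR-27a pulldown.

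Btg2, an antiproliferative protein that recruits the deadenylation machinery to messenger RNA, had 52.0, 49.99 and 57.6 CPM in the control pulldown and 68.0, 72.8 and 73.7 CPM in the miR-27a pulldown. All 3 miR-27a libraries lay at least 10 CPM above the highest control library. The rise was 0.42 ± 0.089, a fold of 1.34, with an adjusted p of 0.0049. It passed under each of 15 alternatives, at 0.00031 to 0.039, and stood at 0.41 ± 0.087 without replicate 2 of the miR-27a pulldown.

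Trp53inp1 lay at 614, 706 and 624 CPM in the control pulldown and at 728, 882 and 738 CPM in the miR-27a pulldown. The second replicate was the highest of each group, and the groups did not overlap. The change of 0.27 ± 0.096 did not pass (adjusted p = 0.080), but with the replicate block it did (adjusted p = 0.0062). Without replicate 1 of the miR-27a pulldown it passed as well, at 0.32 (adjusted p = 0.022), and without replicate 2 of that group it was 0.18 ± 0.075 (adjusted p = 0.083).

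Gadd45a, a stress sensor that binds cyclin-CDK complexes and repair proteins, went the other way. It had 31.2, 30.6 and 33.2 CPM in the control pulldown and 23.1, 30.4 and 24.3 CPM in the miR-27a pulldown. Replicate 2 of the latter was close to the control libraries, and the other 2 were lower by more than 6 CPM. The change of -0.29 ± 0.11 had an adjusted p of 0.11. Without that replicate it was -0.40 ± 0.10, with an adjusted p of 0.0028.

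Cdkn1a had 4.26, 5.40 and 5.23 CPM in the control pulldown and 7.26, 5.98 and 6.61 CPM in the miR-27a pulldown. The groups did not overlap, but the change of 0.36 ± 0.14 had an adjusted p of 0.12. In the fit of all 12 libraries it passed, at 0.035.

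The remaining 5 genes overlapped between the pulldown groups. Cdkn1b had 116.8 to 124 CPM and 116.9 to 126 CPM, a change of 0.02 ± 0.080 (adjusted p = 0.92). Cdkn2c had 38.0 to 41.8 CPM and 35.8 to 44.3 CPM, a change of 0.04 ± 0.10 (adjusted p = 0.85). Bax had 127 to 135 CPM and 117 to 140.1 CPM, a change of 0.00 ± 0.088 (adjusted p = 0.99). Replicate 2 of the miR-27a pulldown was the lowest of its group for Cdkn2c and Bax. Mdm2 had 142 to 158 CPM and 123 to 161 CPM, a change of -0.08 ± 0.097 (adjusted p = 0.66). Trp53 had 4.56 to 5.78 CPM and 4.33 to 5.82 CPM, a change of -0.02 ± 0.15 (adjusted p = 0.95). The 95% interval of the change reached up to 0.19 for Cdkn1b and Bax, 0.26 for Cdkn2c and 0.13 for Mdm2, so the whole-cell rises of these 4 genes lay within it.

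The proliferation markers rose in pulldown RNA too, all 8 of them, from 727 to 811 CPM summed to 1423 to 1486 CPM. Of the astrocyte markers 7 of 10 fell, from 5691 to 5850 CPM down to 4021 to 4506 CPM, and of the mature oligodendrocyte markers 5 of 10, from 5935 to 6657 CPM down to 4561 to 5576 CPM. Of the OPC markers 3 of 10 rose and 0 fell, from 3954 to 4032 CPM up to 4555 to 4704 CPM. The part of all these shifts in the pulldown results was not tested.

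Pulldown RNA was then set against whole-cell RNA under each mimic, to show which transcripts were over-represented in the captured fraction. Under the control mimic, which carries the tag as well, 6 of the 10 genes were higher in pulldown RNA and 2 were lower. With 62% of all 13875 genes past the threshold, 31.7% higher and 30.3% lower, most genes differed between the fractions. All 10 genes had groups that did not overlap, 7 higher and 3 lower, against 67.5% of all genes, 34.2% higher and 33.3% lower. Under miR-27a, 4 genes were higher and 2 lower, against 60.2% of all genes, 29.3% higher and 30.9% lower. Groups did not overlap for 6 of the 10 under miR-27a, 4 higher and 2 lower, against 63.9% of all genes, 31.8% higher and 32.1% lower. There the split of all genes past the threshold was 4064 higher and 4286 lower, and with library totals as the scale it was 5009 and 3312. In this 12-library fit the spread is pooled over the 4 groups, and each group also enters a comparison of the mimics above.

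Btg2 had the greatest difference between the fractions among the 10 genes. It was higher in pulldown RNA by 1.03 ± 0.075 on the log2 scale under the control mimic, a fold of 2.04 (adjusted p = 2.2e-09), and by 1.56 ± 0.075 under miR-27a, a fold of 2.94 (adjusted p = 1.1e-11). Its 6 pulldown libraries, at 49.99 to 73.7 CPM, all lay above its 6 whole-cell libraries, at 22.5 to 26.7 CPM. The level was thus already higher in RNA captured with the control mimic.

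Trp53inp1 was higher in pulldown RNA by 0.57 ± 0.072 under the control mimic (adjusted p = 2.0e-06) and by 0.41 ± 0.072 under miR-27a (adjusted p = 9.0e-05). Cdkn1c was higher by 0.43 ± 0.062 (adjusted p = 7.8e-06) and by 0.35 ± 0.062 (adjusted p = 9.7e-05). For both genes the whole-cell control group was lowest and the miR-27a pulldown group highest. The whole-cell miR-27a group lay above the control pulldown group for Cdkn1c and below it for Trp53inp1.

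Gadd45a was lower in the captured fraction. The log2 difference of pulldown from whole-cell RNA was -0.40 ± 0.087 under the control mimic (adjusted p = 0.00069) and -0.70 ± 0.087 under miR-27a (adjusted p = 1.8e-06). All 6 pulldown libraries, at 23.1 to 33.2 CPM, lay below the 6 whole-cell libraries, at 40.1 to 43.8 CPM. On the opposite strand, a low-level transcript in the table, E230016M11Rik, shares 337 of the 1764 exonic bases of Gadd45a.

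The other genes differed less between fractions, and several of these calls hung on 1 library. Trp53 was higher in pulldown RNA by 0.37 ± 0.13 under the control mimic (adjusted p = 0.023) and by 0.33 ± 0.13 under miR-27a (adjusted p = 0.039). Leaving out whole-cell control replicate 1 or 2 or pulldown control replicate 3 took the first to 0.081, 0.051 and 0.11, and leaving out whole-cell miR-27a replicate 2 or 3 or pulldown miR-27a replicate 1 took the second to 0.095, 0.13 and 0.19. The first also missed the threshold with no filter on low values (0.0505), and the second with no filter (0.079), with limma voom (0.056) and in the fit of the 6 libraries compared (0.052).

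Under the control mimic, Cdkn2c was higher in pulldown RNA by 0.25 ± 0.085 (adjusted p = 0.015) and Mdm2 by 0.23 ± 0.077 (adjusted p = 0.013). Leaving out whole-cell control replicate 2 ended the call on Cdkn2c (0.060), as did leaving out pulldown control replicate 2 (0.056), and that on Mdm2 ended without whole-cell control replicate 3 (0.053) or pulldown control replicate 2 (0.060). Under miR-27a neither passed, at 0.07 ± 0.085 for Cdkn2c (adjusted p = 0.49) and 0.04 ± 0.077 for Mdm2 (adjusted p = 0.64). Without pulldown miR-27a replicate 2 the latter changed sign, to -0.048 ± 0.062 (adjusted p = 0.52).

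Cdkn1a had a log2 difference of -0.41 ± 0.12 under the control mimic (adjusted p = 0.0056) and of 0.10 ± 0.12 under miR-27a (adjusted p = 0.48). Cdkn1b had -0.07 ± 0.057 (adjusted p = 0.28) and -0.18 ± 0.057 (adjusted p = 0.013). The second call on Cdkn1b ended when whole-cell miR-27a replicate 3 was omitted (0.069) and with library totals as the scale (0.30), under which its control-mimic difference changed sign to 0.02. Bax had 0.15 ± 0.067 (adjusted p = 0.066) and -0.03 ± 0.067 (adjusted p = 0.71). The latter became 0.07 with library totals and 0.051 without pulldown miR-27a replicate 2. The former passed with library totals, at 0.24 (adjusted p = 0.0056), and in the fit of the 6 libraries compared (adjusted p = 0.019). That scaling moved the median of all genes upward by 0.0878 under the control mimic and 0.101 under miR-27a.

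Markers of OPCs and of endothelial, mural and fibroblast cells were mostly higher in the captured RNA, and those of mature glia and neurons mostly lower. Of 10 OPC genes 8 were higher and none lower under the control mimic, and their summed level was 3954 to 4032 CPM in pulldown RNA against 2388 to 2443 CPM in whole-cell RNA. Of 10 mature oligodendrocyte genes 7 were lower and 1 higher, and of 10 astrocyte genes 7 lower and 2 higher. Of 10 tested endothelial, mural and fibroblast genes 6 were higher and 3 lower, with a median log2 difference of 0.90 against 0.82 for the OPC genes, and of 8 neuronal genes 5 were lower and 1 higher. Proliferation genes were lower in 6 of 8. How far the makeup of the captured RNA bears on the differences of the 10 genes was not tested.

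**Figure D3:**
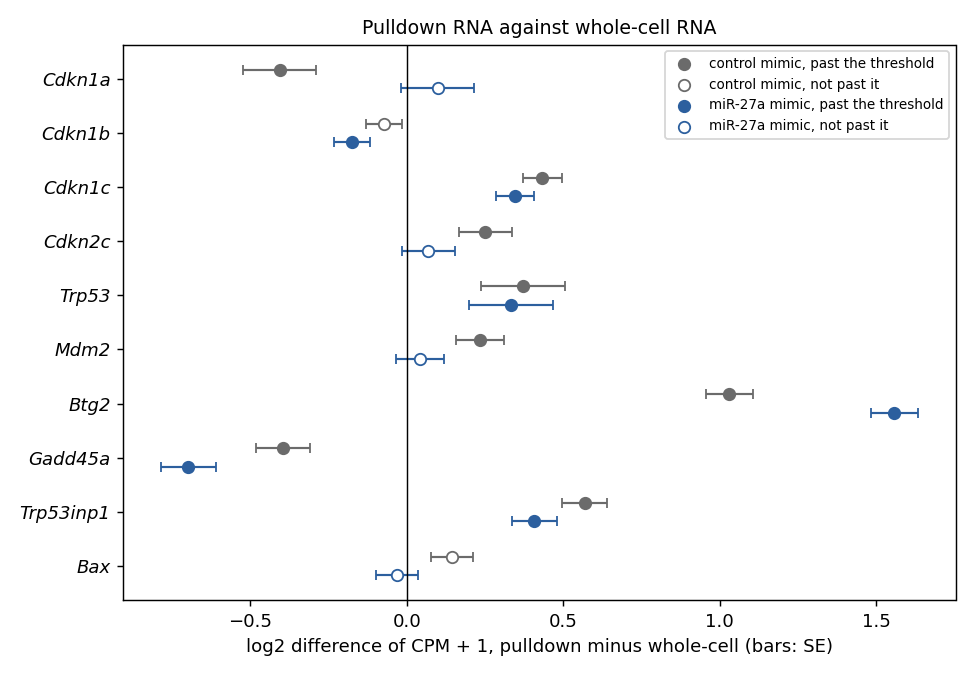
Log2 difference of CPM + 1 between pulldown and whole-cell RNA on the x axis for the 10 genes under the control mimic (grey) and under the miR-27a mimic (blue), from the limma fit of all 12 libraries, with bars for the SE and filled points for an adjusted p under 0.05. Btg2 lies at 1.03 and 1.56, apart from the other genes, and Gadd45a at -0.40 and -0.70.

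The last comparison asked whether the pulldown difference itself changed with the mimic. Btg2 was the 1 gene of the 10 that passed, against 1.07% of all 13875 genes, 0.339% higher and 0.735% lower. Its pulldown difference was greater under miR-27a by 0.53 ± 0.11 on the log2 scale, with a 95% interval from 0.30 to 0.75 and an adjusted p of 0.019 in limma. Whole-cell Btg2 went from 25.5 ± 1.4 CPM (SD, n = 3) to 23.6 ± 1.1 CPM, while pulldown Btg2 went from 53.2 ± 4.0 CPM to 71.5 ± 3.1 CPM. By p-value Btg2 ranked 65 of 13875, and by size of the upward difference 158. It kept its size, 0.48 to 0.58, when any 1 library was left out, but with 5 of those 12 omissions it missed the threshold. These were whole-cell control replicate 3 (0.081), whole-cell miR-27a replicates 1 (0.081), 2 (0.052) and 3 (0.052), and pulldown control replicate 1 (0.051). When pulldown miR-27a replicate 2 was omitted it was 0.51 ± 0.11 (adjusted p = 0.0058). Marker lists shifted in this comparison too, against a median of -0.01 over all genes. The median was -0.32 for mature oligodendrocyte genes (3 of 10 lower, 0 higher) and -0.26 for astrocyte genes (1 of 10 lower, 0 higher). For proliferation genes it was 0.17 (1 of 8 higher, 0 lower), and for OPC genes 0.04 (0 of 10 past the threshold). The part of these shifts in the differences of the 10 genes was not tested.

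Btg2 is also the gene with the 8mer printed above. Of 870 tested genes with an 8mer, 4 were called lower in this test and 2 higher, Btg2 being 1 of the latter. The other gene called higher, Plk2, belongs to the list of further p53 target genes and was named after its values were seen. It encodes a polo-like kinase and had 73.5 ± 2.3 CPM in whole-cell RNA under the control mimic and 55.5 ± 0.97 CPM under miR-27a, against 88.5 ± 3.4 and 90.7 ± 2.6 CPM in pulldown RNA. Its difference was 0.43 ± 0.083 (adjusted p = 0.013). In whole-cell RNA Plk2 fell by 0.40 on the log2 scale (adjusted p = 1.0e-06), and in pulldown RNA it changed by 0.04 ± 0.081 (adjusted p = 0.83). The Btg2 call thus came with a higher pulldown level, and the Plk2 call with a lower whole-cell level. The 3 sites in the Plk2 3′ UTR of 620 bases are shown for comparison with those of Btg2, with the match in capitals.
Plk2, 7mer, chr13:110400273-110400302, plus strand: gactcttttccACTGTGAgatcaacaggga
Plk2, 8mer, chr13:110400551-110400580, plus strand: gaagacttggaACTGTGAAtacacttcctg
Plk2, 8mer, chr13:110400641-110400670, plus strand: ttggctgcttaACTGTGAActatggccata

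The presence of an 8mer did not go with a higher pulldown difference over genes in general. The median difference was -0.01 over the 870 genes with an 8mer and -0.02 over the 7894 genes with no site. Of them, 0.230% and 0.431% were called higher, and 0.460% and 0.823% lower. In whole-cell RNA, 29.8% of genes with an 8mer fell under miR-27a against 9.28% of genes with no site. Btg2 was not among those that passed downward there. A letter match is a description of the sequence and does not show binding.

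Cdkn1a, with a 7mer, had a difference of 0.50 ± 0.17, close in size to that of Btg2, but its SE was greater and its adjusted p was 0.17. Its 95% interval ran from 0.16 to 0.85. It came from a lower whole-cell level and a higher pulldown level under miR-27a, neither of which passed alone. Trp53inp1, with a 7mer as well, had -0.16 ± 0.10 (adjusted p = 0.54).

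Gadd45a had the most negative difference of the 10, -0.30 ± 0.12 (adjusted p = 0.29). Omitting pulldown miR-27a replicate 2 made it -0.42 ± 0.10, with an adjusted p of 0.018. The remaining 6 genes lay between -0.19 for Mdm2 and -0.04 for Trp53, and none passed. Over the 10 genes the median was -0.13, against -0.01 over all genes. With median-of-ratios scaling, the genes past the threshold split into 53 higher and 72 lower, in place of 47 and 102.

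Divided by exonic length, with all annotated exons of a gene merged, the levels give an order of the 10 genes. The expressed transcript may be shorter than this length, so close ranks depend on the annotation. Reads of the overlapping genes named above, as for Bax and Cdkn1c, could not be separated. In whole-cell RNA under the control mimic, Bax led with 75.2 ± 1.9 CPM per kilobase of exon (SD, n = 3), followed by Trp53inp1 with 67.3 ± 1.6 and Cdkn1c with 49.8 ± 2.2. Cdkn1b at 27.6 ± 0.19, Mdm2 at 25.0 ± 0.76 and Gadd45a at 23.8 ± 1.1 CPM per kilobase formed a middle group, in which Mdm2 and Gadd45a differed by about their SD. Cdkn2c had 12.5 ± 0.52 and Btg2 9.30 ± 0.51. Cdkn1a at 1.93 ± 0.090 and Trp53 at 0.895 ± 0.077 were an order of magnitude below the middle group. Under miR-27a, Trp53inp1 at 90.7 ± 2.2, Cdkn1c at 85.6 ± 1.7 and Bax at 85.3 ± 2.9 CPM per kilobase headed the order, and the last 2 did not differ beyond their spread. Among the CIP/KIP inhibitors, p57 was thus the most abundant transcript per length in whole-cell RNA under both mimics, and p21 the least.

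The wider pathway was described by 5 lists. Over all genes tested, 24.9% passed the threshold in whole-cell RNA (13% higher, 11.9% lower). In pulldown RNA 13.1% did (6.05% higher, 7.06% lower). Whether the counts of any list differed from these shares was not tested. The INK4 inhibitors and pocket proteins other than Cdkn2c split in whole-cell RNA, with 3 of 5 tested genes higher and 1 lower. Cdkn2b, which encodes the INK4 inhibitor p15, fell by 0.74 on the log2 scale (SE 0.12, adjusted p = 8.8e-05), from 5.22 ± 0.45 to 2.72 ± 0.18 CPM. It also fell in pulldown RNA, by 0.85 (SE 0.18, adjusted p = 0.0053). The retinoblastoma gene Rb1 rose by 0.25 ± 0.056 (adjusted p = 0.0020) and in pulldown RNA by 0.44 ± 0.097 (adjusted p = 0.0066), and its relative Rbl1 rose by 0.21 ± 0.066 in whole-cell RNA (adjusted p = 0.021). The call on Rbl1 ended without whole-cell control replicate 2 (0.091) or miR-27a replicate 3 (0.11), and that on Rb1 in pulldown RNA without pulldown control replicate 3 (0.059). In the fit of all 12 libraries the whole-cell calls on Rb1 (0.063) and Rbl1 (0.099) ended. In pulldown RNA 1 of 5 rose and 1 fell. Rbl1 did not pass there, at 0.26 ± 0.099 (adjusted p = 0.11).

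Of 8 tested genes that govern the turnover of CDK inhibitors, 2 rose and 2 fell in whole-cell RNA. Uhmk1, a kinase that phosphorylates p27 and moves it out of the nucleus, rose by 0.59 ± 0.071 (adjusted p = 1.3e-06), from 17.9 ± 1.0 to 27.4 ± 0.47 CPM. In pulldown RNA it was the 1 gene of 8 to pass, by 0.54 ± 0.099 (adjusted p = 0.0019). Rbx1 and Cul1, subunits of the SCF ubiquitin ligase that degrades p27, had changes of -0.11 ± 0.035 (adjusted p = 0.029) and 0.10 ± 0.035 (adjusted p = 0.047). Both calls ended with the replicate block, at 0.056 and 0.078, and in the fit of all 12 libraries, at 0.26 and 0.36. With no filter on low values (0.066) and with median-of-ratios scaling (0.13), the call on Cul1 ended too. That on Rbx1 also ended without control replicate 3 (0.056) or miR-27a replicate 1 (0.13) or 3 (0.093). That on Cul1 ended without control replicate 2 (0.062) or 3 (0.16) or miR-27a replicate 1 (0.099), 2 (0.17) or 3 (0.078).

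Regulators and relatives of p53 numbered 15 tested, of which 2 rose and 2 fell in whole-cell RNA and 1 rose and 1 fell in pulldown RNA. Rchy1, a ubiquitin ligase of p53, fell in both, by 0.28 (SE 0.050, adjusted p = 0.00021) and by 0.37 (SE 0.097, adjusted p = 0.020). The checkpoint kinase Chek2 rose by 0.32 ± 0.097 in whole-cell RNA (adjusted p = 0.017), and Chek1 by 0.46 ± 0.13 in pulldown RNA (adjusted p = 0.029). In the other fraction neither passed. Chek2 had 0.32 ± 0.12 in pulldown RNA (adjusted p = 0.10), and Chek1 0.10 ± 0.086 in whole-cell RNA (adjusted p = 0.43). The acetyltransferase gene Kat5 rose by 0.16 ± 0.047 in whole-cell RNA (adjusted p = 0.013). Its pulldown level was 67.8 ± 1.2 CPM under the control mimic and 65.8 ± 3.6 CPM under miR-27a. The median over this list was 0.01 in both fractions. Omitting miR-27a replicate 3 ended the whole-cell calls on Kat5 (0.073) and Chek2 (0.091), and omitting control replicate 3 that on Chek2 (0.082). The fit of all 12 libraries ended both as well (0.10 and 0.057). With no filter on low values, the calls on Chek2 in whole-cell RNA (0.059) and Chek1 in pulldown RNA (0.091) ended. In pulldown RNA, Rchy1 missed the threshold without control replicate 1 (0.084) or 2 (0.12) or miR-27a replicate 3 (0.093), and Chek1 without control replicate 1 (0.079) or 3 (0.14) or miR-27a replicate 1 (0.057).

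Other p53 targets of arrest, repair and metabolism moved both ways. Of 26 tested, 10 rose and 6 fell in whole-cell RNA, and 3 rose and 3 fell in pulldown RNA. Ckap2, a spindle protein of dividing cells, rose most, by 0.77 ± 0.039 (adjusted p = 1.2e-12) and by 0.97 ± 0.083 in pulldown RNA (adjusted p = 2.9e-06). The receptor gene Eda2r rose by 0.43 ± 0.047 (adjusted p = 3.0e-07) and by 0.56 ± 0.085 (adjusted p = 0.00039). Ccng1, a cyclin G gene induced by p53, fell from 649 ± 15 to 503 ± 15 CPM in whole-cell RNA, a log2 change of -0.37 ± 0.033 (adjusted p = 1.8e-08). Its pulldown level went from 463 ± 24 to 330 ± 46 CPM. Gadd45b, the paralog of Gadd45a, fell by 0.76 in pulldown RNA (SE 0.14, adjusted p = 0.0015), from 11.01 ± 0.27 to 6.12 ± 1.00 CPM. Its whole-cell level went from 9.69 ± 1.8 to 6.01 ± 0.70 CPM. Targets of p53 thus moved both ways in whole-cell RNA. Mdm2, Bax, Trp53inp1, Ckap2 and Eda2r rose, Ccng1 and Plk2 fell, and Cdkn1a, Btg2 and Gadd45a did not pass.

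Among 16 genes of cell death and the BCL2 family, 3 rose and 2 fell in whole-cell RNA, and 1 rose and 2 fell in pulldown RNA. Apaf1, the core of the apoptosome that acts downstream of Bax, fell by 0.41 (SE 0.046, adjusted p = 4.2e-07), from 78.3 ± 0.88 to 58.6 ± 1.6 CPM, and by 0.54 in pulldown RNA (SE 0.088, adjusted p = 0.00071). Trp53i13 rose by 0.47 ± 0.13 (adjusted p = 0.010) and Bcl2l11, which encodes the activator BIM, by 0.31 ± 0.11 (adjusted p = 0.032), both in whole-cell RNA. In pulldown RNA the survival gene Bcl2 rose by 0.47 ± 0.12 (adjusted p = 0.019) and the death agonist gene Bid fell by 0.52 (SE 0.15, adjusted p = 0.030). In whole-cell RNA Bcl2 went from 7.58 ± 0.38 to 9.62 ± 1.2 CPM, and Bid from 4.89 ± 0.52 to 4.02 ± 0.82 CPM. In pulldown RNA Trp53i13 went from 10.8 ± 0.76 to 11.4 ± 2.3 CPM, and Bcl2l11 from 20.5 ± 2.7 to 18.8 ± 1.7 CPM. The calls on these 4 genes hung on single libraries. Trp53i13 missed the threshold without control replicate 1 (0.063) or miR-27a replicate 3 (0.082). Bcl2l11 missed it without any control replicate (0.052 to 0.063), miR-27a replicate 1 (0.18) or 2 (0.071). Bcl2 and Bid missed it without any pulldown control replicate (0.052 to 0.072 and 0.051 to 0.11) or pulldown miR-27a replicate 3 (0.063 and 0.13). With no filter on low values Trp53i13 (0.073), Bcl2l11 (0.097), Bcl2 (0.063) and Bid (0.079) all missed it. In the fit of all 12 libraries Trp53i13 (0.052) and Bcl2l11 (0.084) did.

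**Figure D4:**
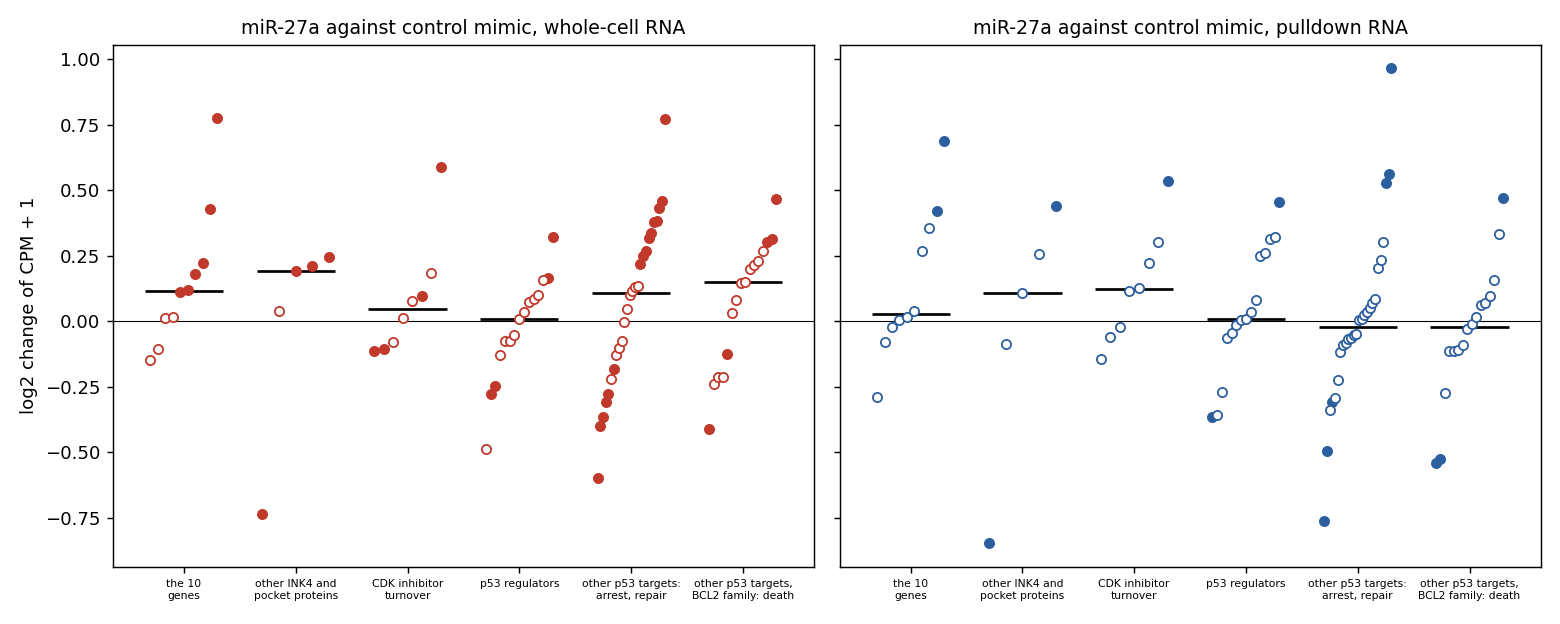
Log2 change of CPM + 1 under miR-27a on the y axis in whole-cell RNA (left, red) and pulldown RNA (right, blue) for the 10 genes and 5 pathway lists, each point a gene sorted by its change, filled where the adjusted p is under 0.05 in limma, with a line at the list's median. In whole-cell RNA each of the 5 lists holds filled points on both sides of 0, such as Cdkn2b at -0.74 and Ckap2 at 0.77. In pulldown RNA the list of CDK inhibitor turnover has 1 filled point, above 0.

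Promoters of the 10 genes were searched for exact matches to the consensus p53 half-site, the repeated element of p53 binding sites, which reads the same on both strands. RefSeq windows of 250 bases before to 50 bases after the start (GRCm38.p6) were found for all but Cdkn1c and Trp53inp1, 8 of the 10 genes, as 10 windows. At least one half-site lay in 5 of these 10 windows, each of another gene, and in 8.36% of 32851 such windows over all genes. Genes with a half-site in this window were Cdkn1a, Trp53, Mdm2, Gadd45a and Bax, of which Mdm2 and Bax rose in whole-cell RNA and the other 3 did not pass. A half-site of Cdkn1a and those of Mdm2 and Bax are shown, with the match in capitals, since all 3 are established p53 targets.
Cdkn1a, chr17:29090918-29090947, plus strand: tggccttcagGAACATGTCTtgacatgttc
Mdm2, chr10:117710925-117710954, minus strand: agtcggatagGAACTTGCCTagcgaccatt
Bax, chr7:45467080-45467109, minus strand: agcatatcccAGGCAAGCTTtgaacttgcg

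Genes whose level followed the same pattern over the 12 libraries were sought among the 13875 tested, by Pearson's r of log2(CPM + 1). Provisional symbols, of the form Gm and a number or ending in Rik, were left out of the ranking. For Cdkn1c the genes most alike were Cenpa (0.967), Rbbp5 (0.965) and Tmem48 (0.964). Cenpa, a centromeric histone of dividing cells, had mean levels of 15.98 and 29.4 CPM in whole-cell RNA and 19.5 and 38.2 CPM in pulldown RNA under the control and miR-27a mimics. For Trp53inp1 they were Sdad1 (0.977), Zfp568 (0.975) and Mapk1ip1l (0.970), and for Bax they were Whsc2 (0.917), Akt1 (0.902) and Id3 (0.895). These coefficients describe 12 libraries that share 4 groups and common scaling. Within the 10 genes, Cdkn1c and Trp53inp1 had r = 0.852, and Btg2 and Gadd45a, which both act in arrest, had r = -0.931.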

How the data were processed

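RNA-seq of 12 libraries in 4 groups was analysed from the log2 CPM values the authors deposited for 20540 genes. Per the design text, reads from TruSeq Stranded Total RNA libraries were trimmed with skewer, aligned with HISAT2 to GRCm38, counted with featureCounts (Subread) and normalised in R. No source used here gives versions or the strand setting, and the submitters' processing notes also name mm8 with no role. The lowest value, -6.27 in every library, is that of 0 reads, and subtracting it on the linear scale gave CPM that were whole reads for 100% of values (tolerance 0.01 reads). The CPM of 3 reads was 0.116 to 0.2, a limit from counting error only.

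Two-sided tests on log2(CPM + 1) used limma 3.58.1 (R 4.3.3) with a trend over mean expression. They covered genes that reached 1 CPM in 3 or more of the fitted libraries, with Benjamini-Hochberg adjustment over all of them, and a threshold of 0.05. The mimics were compared within a fraction (6 libraries), and fractions in a fit of all 12. Alternatives were another pseudocount (0.25 or 5), filter, scaling (library totals, median of ratios), limma voom on the recovered reads, the other set of libraries, a replicate block, and leaving out each library.

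The 10 genes and all lists were chosen with earlier results of these data known. Of each list, up to 3 genes with the smallest p past the threshold were named. The script was tested on simulated data. Same-numbered libraries' deviations from their group means correlated at 0.182 to 0.413 in the pulldown mimic comparison, so pairing was inferred there from the data; elsewhere not every pair was above 0.1. Sites were searched in GENCODE M21 UTRs and half-sites in RefSeq promoters. Older symbols in the table were matched through RefSeq for 5 list genes. Python 3.11.15, pandas 2.3.3, numpy 2.4.6, scipy 1.17.1 and matplotlib 3.10.9 were used.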

Additional observations from a re-analysis of the deposited data

Results flagged for a closer look

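The test of the difference itself asked whether the effect of the miR-27a mimic differed between pulldown and whole-cell RNA. Among the genes followed here and the pathway lists, with marker lists left aside, 2 genes passed it. Over all 13875 genes tested, 149 passed (1.07%), 47 higher and 102 lower. Btg2 had 0.53 ± 0.11 (adjusted p = 0.019 in limma), the log2 change in pulldown RNA less that in whole-cell RNA. Plk2, from the list of further p53 targets and named after its values were seen, had 0.43 ± 0.083 (adjusted p = 0.013). Leaving out 1 library ended the call on Btg2 in 5 of 12 cases and that on Plk2 in 4 of 12, with adjusted p-values of up to 0.081 and 0.064. For Plk2 these were whole-cell control replicate 3 (0.055), whole-cell miR-27a replicates 1 (0.055) and 3 (0.064), and pulldown control replicate 3 (0.059). For Btg2 they were whole-cell control replicate 3 (0.081), whole-cell miR-27a replicates 1 (0.081), 2 (0.052) and 3 (0.052), and pulldown control replicate 1 (0.051).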

How the results depend on the processing

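In whole-cell RNA, the fit of all 12 libraries gave 1415 genes past the threshold in place of 3335 and 2 of the 10 genes in place of 6, and leaving out 1 library left 3 to 6 (3 without miR-27a replicate 2 or 3). In pulldown RNA that fit gave 3051 genes in place of 1781 and 5 of the 10 in place of 2. Leaving out 1 library there gave 969 to 2691 genes, with 1002, 1180 and 969 without control replicates 1, 2 and 3, and 2691 and 1029 without miR-27a replicates 2 and 3. For the difference between mimics, 149 genes became 73 with no filter and 43 to 473 without 1 library. The omissions that moved it were whole-cell control replicates 1 (54) and 3 (53), whole-cell miR-27a replicates 1 (57), 2 (66) and 3 (43), pulldown control replicates 1 (90) and 3 (49), and pulldown miR-27a replicates 1 (359) and 2 (473), and 0 to 2 of the 10 genes passed. The replicate block gave 2743 genes in pulldown RNA, 3104 in whole-cell RNA and 170 for the difference between mimics. On the 10 genes it changed the calls on Trp53inp1 in pulldown RNA (0.0062) and on Mdm2 in whole-cell RNA (0.060), and no other.

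Changes near 0 changed sign. With median-of-ratios scaling Trp53 had -0.00078 and Gadd45a -0.0059 in whole-cell RNA. With library totals Cdkn1b had 0.018 under the control mimic and Bax 0.073 under miR-27a between fractions. Leaving out 1 library gave, in whole-cell RNA, -0.057 to 0.069 for Trp53 and -0.019 to 0.044 for Gadd45a. In pulldown RNA it gave -0.011 to 0.046 for Cdkn1b, -0.010 to 0.14 for Cdkn2c, -0.13 to 0.070 for Trp53, -0.17 to 0.020 for Mdm2 and -0.042 to 0.086 for Bax. Between fractions under miR-27a the ranges were -0.048 to 0.14 for Mdm2 and -0.076 to 0.051 for Bax, and for the difference between mimics -0.14 to 0.056 for Trp53. The cause was not tested. Trp53 and Cdkn1a, with the fewest reads, had the largest SE of the 10 genes in each comparison, and the part of depth in this was not tested.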
